A study of Mus musculus with 6 samples.

Results

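Proteasome genes were taken as the rows of the liver count table whose symbol is Psm, then a letter from a to g, then a number, without the interferon-inducible catalytic subunits Psmb8, Psmb9 and Psmb10. The rule used names alone and no measured value. It took 46 of 56674 rows and 45 symbols, since Psmd5 stood on 2 rows. The genes fell into 7 role groups, which were the alpha ring and the beta ring of the 20S core, the ATPases of the 19S base, the scaffold and ubiquitin receptors, the 19S lid, the assembly factors, and the activators with the inhibitor PI31. The name pattern therefore also took the activators Psme1 to Psme4 and Psmf1, which are neither subunits of the 26S complex nor assembly factors. Of the 46 rows, 44 passed the filter on low counts and were tested. Psmb11, the beta subunit of the thymus, had 0 counts in every library, which allows at most 3 counts per library, or 0.0290 to 0.0329 CPM (counts scaled to library size) in PP-MP and 0.0287 to 0.0497 CPM in control. The second row of Psmd5 held 0, 0 and 4 counts in PP-MP 1, 2 and 3 and 0, 8 and 12 counts in control 1, 2 and 3.

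The proteasome is the protease that degrades proteins tagged with ubiquitin. Its core is a barrel with gated alpha rings at the ends and catalytic beta rings inside, and the regulatory particle on top binds ubiquitin, removes it, and unfolds the substrate with a ring of ATPases. The transcription factor NRF1, encoded by Nfe2l1, is known to raise the transcription of most subunit genes together when proteasome capacity is short, and in hepatocytes its loss leads to fatty liver disease in mice.

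The samples were livers of male C57BL/6 mice, an inbred laboratory strain, aged 71 weeks. One group ate chow with polypropylene microplastic (PP-MP, 3 samples) and the other ate normal chow (control, 3 samples). The treatment text in the labels gives PS-MP for all samples, and the groups here follow the titles and characteristics. No dose, particle size or feeding period is given in the sources used here. The labels do not state that replicates came from separate animals, so p-values here reflect only how far these libraries differ from each other, which may be technical. In bulk liver RNA, fewer cells of a type and less RNA per cell cannot be told apart.

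Total counts were 81073738 to 100252360 per library in PP-MP and 68357478 to 112566641 in control. The 18S ribosomal RNA gene took 0.655% to 0.750% of the counts in PP-MP and 1.15% to 11.2% in control. All 8 hepatocyte markers were detected in every library, with summed levels of 82919 to 92122 CPM in PP-MP and 73663 to 85258 CPM in control. The 9 Kupffer cell and macrophage markers summed to 627, 367 and 170 CPM in PP-MP 1, 2 and 3, and to 160, 128 and 170 CPM in control 1, 2 and 3. The 6 neutrophil markers summed to 24.0, 5.18 and 3.10 CPM in PP-MP 1, 2 and 3, and to 1.86, 1.43 and 1.31 CPM in control 1, 2 and 3, with Ly6g at 0 counts in PP-MP 3 and in every control. The T and NK cell markers summed to 2.23 to 3.02 CPM in PP-MP and 3.17 to 4.51 CPM in control, while the summed B cell, endothelial, stellate and cholangiocyte markers overlapped between the diets.

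No proteasome gene passed the threshold of an adjusted p of 0.05 between PP-MP and control livers in the quasi-likelihood test of edgeR (0 of 44), where 0.0109% of all 18284 genes tested did. At an unadjusted p under 0.05, 4 of the 44 stood out (9.09%, against 13.9% of all genes tested). All 4 had lower values in PP-MP, as had 5.81% of all genes tested at that p, and none had higher values, as had 8.05%. The 4 lower genes were Psme1 and Psme3, which encode activator subunits, Psmd11 of the lid, and the assembly chaperone Psmd5. With library totals the direction turned round, as 3 proteasome genes passed that p, all 3 with higher values in PP-MP. The direction of all genes moved as well, with a fold change below 0 for 25.5% of them, against 47.4% with TMM factors. The share of all genes passing that p with library totals is not given here. DESeq2 called 0 of the 44 at an adjusted p of 0.05 and 4.25% of all genes tested, and limma-voom also called 0 of the 44. The smallest adjusted p among the proteasome genes was 0.30 by edgeR and 0.13 by DESeq2, both for Psme1.

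The estimates were narrow for most of the complex. The 95% interval of the fold change lay within 2-fold for 42 of the 44 genes (95.5%, against 46.3% of all genes tested), and within 1.5-fold for 20 of them (45.5%, against 17.3%). Psma8 and Psmc6 were the 2 exceptions at 2-fold. The median log2 fold change was −0.12 over the 44 genes and 0.03 over all genes tested with TMM scaling, while scaling by library totals gave 0.10 for the 44 genes and 0.26 for all. The sign of the proteasome median thus turned with the scaling, which moved the median of all genes by a like amount. A fold change below 0 was fitted for 36 of the 44 genes (81.8%, against 47.4% of all genes tested) with TMM factors and for 12 with library totals. Relative to the median of all genes, 36 of the 44 genes lay below it with TMM factors and 37 with library totals. The distance between the medians, proteasome genes minus all genes, was −0.15 with TMM factors and −0.16 with library totals. A change of scaling shifts all genes about alike, so this distance and the number below the median can hardly differ with it. With 1 library left out, the distance ranged from −0.04 without PP-MP 1 to −0.29 without PP-MP 3. The number of genes below the median of all genes was 26 without PP-MP 1 and 42 without PP-MP 3.

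**Figure D1:**
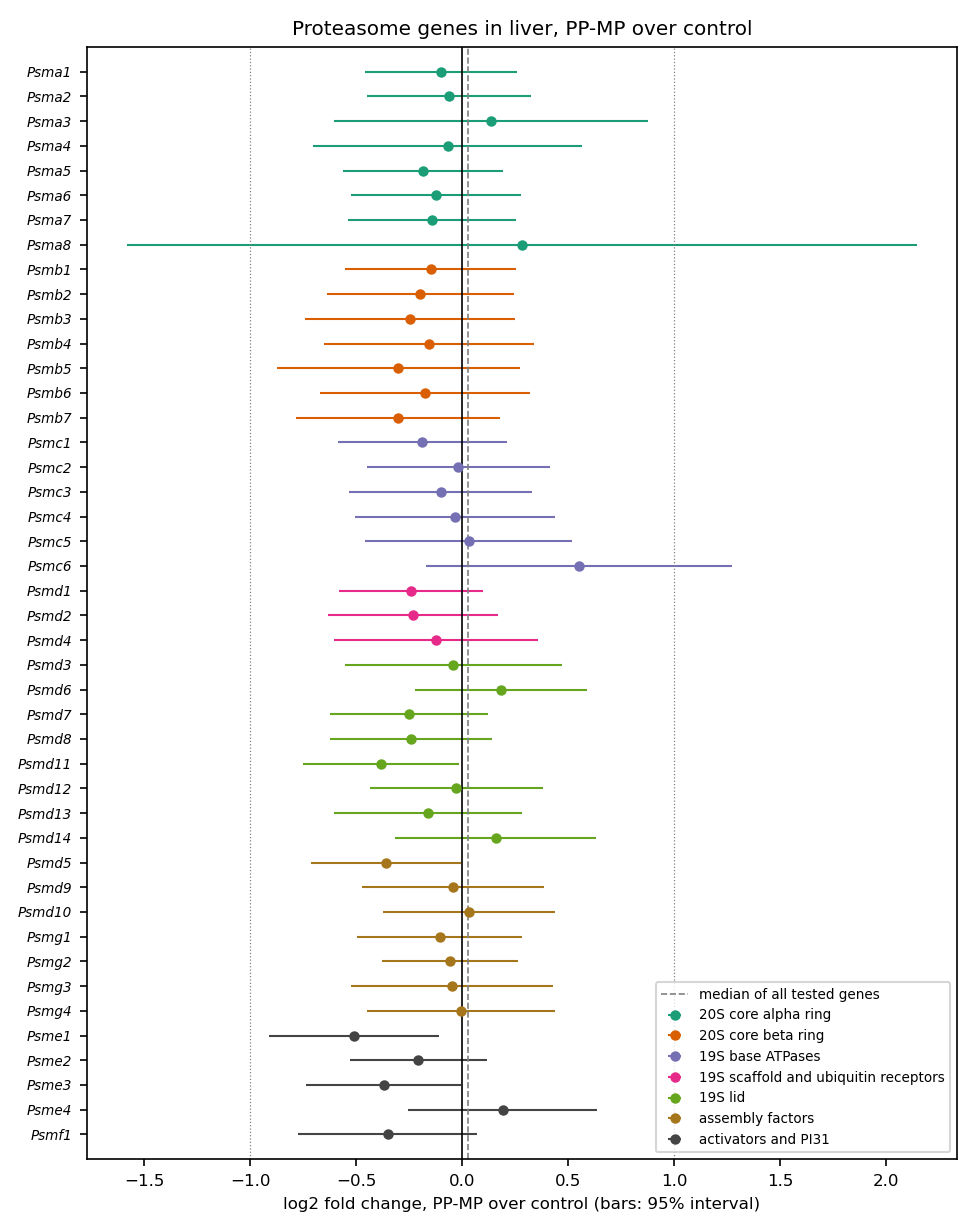
Log2 fold change of each tested proteasome gene, PP-MP over control, with its 95% interval from edgeR, coloured by role; the dashed line is the median of all genes tested (0.03) and the dotted lines mark 2-fold. With TMM scaling 36 of 44 points lie below 0, with library totals 12 do, and the intervals of Psma8 and Psmc6 alone cross a dotted line.

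The 4 promoters below were picked by hand. Psme1 and Psme3 were among the genes of lowest fold change, Psmc6 had the highest, and Psmb5 encodes a catalytic subunit. Psmd11, with a log2 fold change of −0.39 against −0.37 for Psme3, is not shown. Each is the window of 250 bases before the annotated start from RefSeq (GRCm38.p6), written in the direction of the gene, with capitals on the matches to the 5 motifs searched. The windows are chr14:55578244-55578493 on the plus strand for Psme1, chr11:101315963-101316212 on the plus strand for Psme3, chr14:45329574-45329823 on the plus strand for Psmc6, and chr14:54617996-54618245 on the minus strand for Psmb5.
Psme1: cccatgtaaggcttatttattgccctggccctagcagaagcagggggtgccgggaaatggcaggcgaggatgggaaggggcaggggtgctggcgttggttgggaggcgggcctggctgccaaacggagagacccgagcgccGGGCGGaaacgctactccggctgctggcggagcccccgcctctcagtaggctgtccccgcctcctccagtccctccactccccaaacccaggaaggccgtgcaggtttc
Psme3: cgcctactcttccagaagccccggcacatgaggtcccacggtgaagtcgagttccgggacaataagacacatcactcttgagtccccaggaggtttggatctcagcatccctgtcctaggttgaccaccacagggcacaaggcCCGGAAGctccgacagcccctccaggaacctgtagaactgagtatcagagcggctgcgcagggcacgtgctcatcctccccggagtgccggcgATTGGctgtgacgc
Psmc6: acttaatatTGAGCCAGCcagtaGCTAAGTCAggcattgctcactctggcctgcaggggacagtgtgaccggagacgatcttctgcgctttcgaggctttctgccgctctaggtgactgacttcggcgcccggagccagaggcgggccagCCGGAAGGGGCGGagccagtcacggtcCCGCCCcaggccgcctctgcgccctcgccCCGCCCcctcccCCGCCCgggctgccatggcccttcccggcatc
Psmb5: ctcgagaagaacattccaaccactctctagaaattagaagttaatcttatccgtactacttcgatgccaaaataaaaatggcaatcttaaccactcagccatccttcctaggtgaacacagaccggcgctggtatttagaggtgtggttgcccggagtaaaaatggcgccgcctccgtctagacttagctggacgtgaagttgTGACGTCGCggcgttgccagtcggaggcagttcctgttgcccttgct
The motifs were the antioxidant response core that NRF1 is known to bind, searched as TGACNNNGC and TGAGNNNGC, the NF-Y box CCAAT, the Sp1 box GGGCGG, and the ETS core CCGGAAG, each on both strands.

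Of the 45 symbols, 37 had a window. TGACNNNGC was in 5 of them (13.5%, against 13.7% of windows of tested genes and 11.5% of all windows), among them Psmb5, Psmb6 and Psmc6. TGAGNNNGC was in 9 (24.3%, against 18.4% and 16.3%), and Psmc6 and Psmd12 held both forms. The ETS core was in 12 (32.4%, against 14.2% and 7.83%), including Psmd11, Psme3 and Psmc6. GGGCGG was in 21 (56.8%, against 59.4% and 35.4%) and CCAAT in 13 (35.1%, against 40.3% and 37.5%). Matches to GGGCGG overlapped a match to TGACNNNGC in 1 window, to TGAGNNNGC in 3 windows and to CCGGAAG in 1 window. A match is a description of these letters and not a measured site.

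The alpha ring gates the entry to the core. Its 8 genes were tested, none passed the edgeR threshold, and their median log2 fold change was −0.08 with TMM scaling and 0.15 with library totals. Psma5 was at 45.0, 58.2 and 62.9 CPM in PP-MP 1, 2 and 3 and at 61.8, 60.5 and 66.3 CPM in control 1, 2 and 3. PP-MP 1 was the lowest library and the groups overlapped. Its log2 fold change was −0.18 (SE 0.16, edgeR adjusted p = 0.63). Psma6 was at 77.5, 88.8 and 106 CPM in PP-MP and at 95.6, 89.6 and 112 CPM in control (log2 fold change −0.12, SE 0.17, edgeR adjusted p = 0.76). Psma7 was at 85.7, 98.1 and 120 CPM in PP-MP and at 111, 103 and 122 CPM in control (log2 fold change −0.14, SE 0.17, edgeR adjusted p = 0.72). Both repeated the order of Psma5, with PP-MP 1 lowest and the other libraries overlapping. Psma1, Psma2, Psma3 and Psma4 had log2 fold changes of −0.10 to 0.14. Psma8, which replaces Psma7 in the proteasome of the testis, had 18, 50 and 120 counts in PP-MP and 12, 39 and 77 counts in control. Its log2 fold change of 0.28 came with an interval of −1.58 to 2.15, which holds 2-fold changes in either direction.

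The beta ring holds the catalytic sites, in Psmb6 for the caspase-like, Psmb7 for the trypsin-like and Psmb5 for the chymotrypsin-like activity. All 7 tested genes lay below the median of all genes with TMM factors. Library totals gave the same number, as a change of scaling shifts all genes about alike. A fold change below 0 was fitted for 7 with TMM factors but for 3 with library totals. None passed the edgeR threshold. Psmb5 was at 56.0, 75.4 and 92.7 CPM in PP-MP 1, 2 and 3 and at 99.2, 70.4 and 107 CPM in control 1, 2 and 3. The spread within each diet, 74.7 ± 18.4 CPM in PP-MP and 92.0 ± 19.1 CPM in control (SD, n = 3 each), was as large as the gap between them. This gave a log2 fold change of −0.30 (SE 0.24, interval −0.88 to 0.27, edgeR adjusted p = 0.60), and of −0.13 without PP-MP 1.

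Psmb7 was at 68.0, 87.3 and 112 CPM in PP-MP and at 103, 107 and 120 CPM in control, with 2 PP-MP libraries below every control library and PP-MP 3 inside the control range (log2 fold change −0.30, SE 0.20, edgeR adjusted p = 0.53). Psmb6 was at 80.4, 97.6 and 133 CPM in PP-MP and at 119, 106 and 126 CPM in control. PP-MP 3 was the highest of the 6 libraries and PP-MP 1 the lowest (log2 fold change −0.18, SE 0.21, edgeR adjusted p = 0.72). Psmb3, a structural beta subunit, was at 74.3, 80.9 and 109 CPM in PP-MP and at 107, 84.6 and 122 CPM in control (log2 fold change −0.25, SE 0.21, edgeR adjusted p = 0.62), and the diets overlapped. Psmb1, Psmb2 and Psmb4 had log2 fold changes of −0.20 to −0.15.

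The ATPases of the 19S base unfold the substrate and open the gate. Of their 6 genes, 4 had a fold change below 0 with TMM factors and 0 with library totals, and none passed the edgeR threshold. Psmc1 was at 97.3, 122 and 132 CPM in PP-MP and at 133, 120 and 148 CPM in control (log2 fold change −0.19, SE 0.17, edgeR adjusted p = 0.64). Psmc3 was at 83.1, 108 and 119 CPM in PP-MP and at 119, 96.4 and 119 CPM in control (log2 fold change −0.10, SE 0.18, edgeR adjusted p = 0.82). For both, the diets overlapped and PP-MP 1 was the lowest library. Psmc2, Psmc4 and Psmc5 had log2 fold changes of −0.03 to 0.03.

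Psmc6 behaved unlike the other ATPases. It was at 60.1, 65.9 and 75.3 CPM in PP-MP 1, 2 and 3 and at 27.0, 63.4 and 47.2 CPM in control 1, 2 and 3. The spread lay in the controls (67.1 ± 7.65 CPM in PP-MP and 45.8 ± 18.2 CPM in control, SD, n = 3 each), where control 1 was the lowest library and control 2 lay within the PP-MP range. The log2 fold change of 0.55 was the highest among the proteasome genes (SE 0.30, interval −0.17 to 1.27, edgeR adjusted p = 0.46). Among the 44 tested genes Psmc6 had the lowest GC content of the main transcript, 37.0%. In all genes of at most 40% GC, the median log2 level relative to the control mean was 0.59, 0.42 and 0.50 in PP-MP 1, 2 and 3 and −0.54, 0.62 and 0.01 in control 1, 2 and 3, the same order of libraries as for Psmc6 in the controls. With the trend on GC content removed from each library, the fold change of Psmc6 was 0.08 on the log2 scale (edgeR adjusted p = 0.83). It was 0.30 without control 1 and 0.87 without control 2. The relation to GC content was not limited to Psmc6. Over the 44 tested genes, the Spearman correlation of GC content with the level relative to the control mean was 0.62, −0.68 and 0.27 in control 1, 2 and 3. In PP-MP 1, 2 and 3 it was −0.24, −0.30 and −0.29, and with the log2 fold change it was −0.35. As the reference is the control mean of each gene, control levels balance out within a gene. Opposite signs among the controls are therefore in part built in, and the PP-MP values share that reference.

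**Figure D2:**
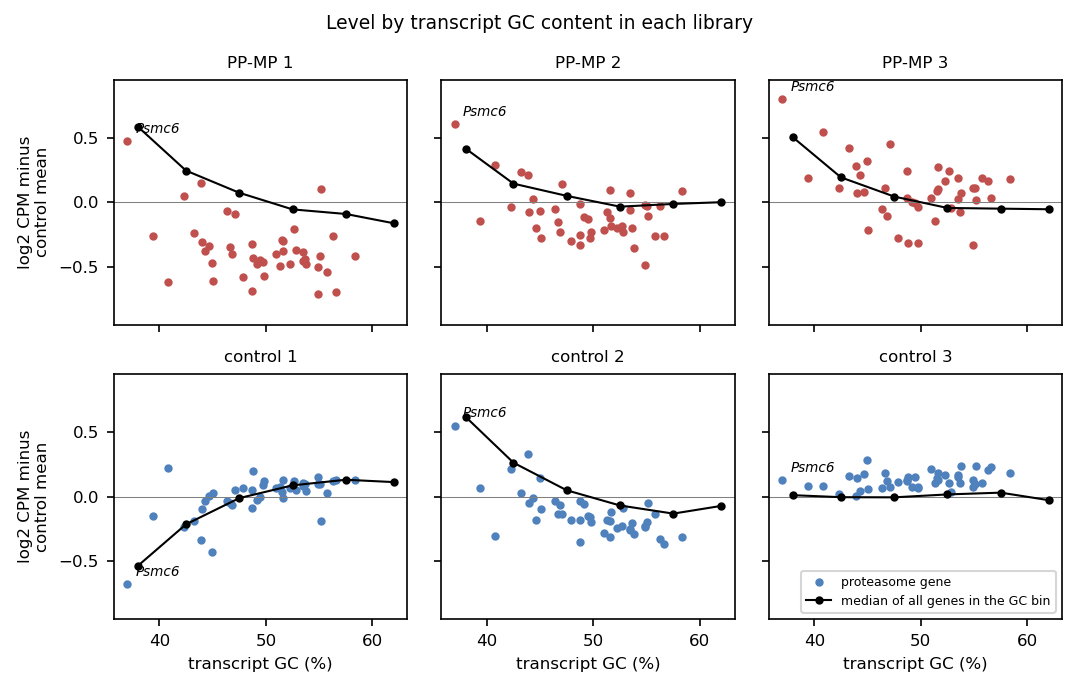
Log2 CPM minus the control mean of each proteasome gene (points) against the GC content of its main transcript in percent, per library, PP-MP above and control below; the black line joins the medians of all genes tested per GC bin. At the low-GC end control 1 lies below 0 and the PP-MP libraries and control 2 above it, with Psmc6 beside the line, while most proteasome genes of PP-MP 1 lie below the line.

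The scaffold proteins Psmd1 and Psmd2 hold the regulatory particle together and dock shuttle factors, and Psmd4 binds ubiquitin chains. Psmd1 was at 112, 126 and 138 CPM in PP-MP 1, 2 and 3 and at 142, 142 and 162 CPM in control 1, 2 and 3. Every PP-MP library was below every control library. The averages were 125 ± 12.8 CPM in PP-MP and 149 ± 11.4 CPM in control (SD, n = 3 each). The log2 fold change was −0.24 (SE 0.14, edgeR adjusted p = 0.48), and −0.01 with library totals. Psmd2 was at 109, 145 and 139 CPM in PP-MP and at 162, 135 and 165 CPM in control, with overlap (log2 fold change −0.23, SE 0.17, edgeR adjusted p = 0.56). Psmd4 was at 76.8, 108 and 118 CPM in PP-MP and at 121, 93.0 and 115 CPM in control, also with overlap (log2 fold change −0.12, SE 0.20, edgeR adjusted p = 0.81).

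The lid removes ubiquitin chains before the substrate enters. Psmd11, a lid subunit known from human stem cells for its part in assembling the 26S complex, was at 88.0, 107 and 109 CPM in PP-MP 1, 2 and 3 and at 138, 116 and 143 CPM in control 1, 2 and 3. All PP-MP libraries were below all controls. Averages of 101 ± 11.6 CPM in PP-MP and 132 ± 14.1 CPM in control (SD, n = 3 each) gave a log2 fold change of −0.39 (SE 0.15, interval −0.75 to −0.02), which missed the threshold (edgeR adjusted p = 0.35, DESeq2 adjusted p = 0.24) and was −0.16 with library totals. Psmd14, the deubiquitinase of the lid, was at 27.6, 38.3 and 43.5 CPM in PP-MP and at 28.5, 33.2 and 36.4 CPM in control (log2 fold change 0.16, SE 0.20, edgeR adjusted p = 0.74). PP-MP 1 was the lowest and PP-MP 3 the highest of the 6 libraries for this gene.

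Psmd7, the partner of Psmd14 in the lid, was at 58.7, 66.7 and 78.7 CPM in PP-MP and at 85.8, 72.3 and 84.8 CPM in control (log2 fold change −0.25, SE 0.16, edgeR adjusted p = 0.51). Psmd8 was at 85.2, 101 and 110 CPM in PP-MP and at 124, 101 and 125 CPM in control (log2 fold change −0.24, SE 0.16, edgeR adjusted p = 0.53). In both genes control 2 was the control library that overlapped with PP-MP. The lid genes Psmd3, Psmd6, Psmd12 and Psmd13 had log2 fold changes of −0.16 to 0.18. Over all 8 lid genes the median was −0.10 with TMM factors and 0.12 with library totals.

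Assembly factors build the core and the base and leave the finished particle. Psmd5, a chaperone of the base, was at 21.1, 26.6 and 27.9 CPM in PP-MP 1, 2 and 3 and at 33.0, 30.3 and 33.8 CPM in control 1, 2 and 3. The diets did not overlap, with averages of 25.2 ± 3.57 CPM in PP-MP and 32.4 ± 1.86 CPM in control (SD, n = 3 each). The log2 fold change of −0.36 (SE 0.15, interval −0.72 to −0.01) missed the threshold (edgeR adjusted p = 0.36, DESeq2 adjusted p = 0.28) and was −0.13 with library totals. Psmg1 and Psmg2 form a pair that places alpha subunits. Psmg1 was at 13.7, 15.4 and 17.9 CPM in PP-MP and at 17.3, 14.7 and 18.6 CPM in control, with overlap (log2 fold change −0.11, SE 0.16, edgeR adjusted p = 0.79).

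Psmg2 varied little, at 8.47, 8.57 and 8.55 CPM in PP-MP and 8.69, 8.68 and 9.28 CPM in control. The diets did not overlap, but the gap was small (8.53 ± 0.0541 CPM in PP-MP and 8.88 ± 0.346 CPM in control, SD, n = 3 each). The log2 fold change was −0.06 (SE 0.13, edgeR adjusted p = 0.86) and 0.17 with library totals. Psmg3, Psmg4, Psmd9 and Psmd10 had log2 fold changes of −0.05 to 0.03. No assembly factor passed the edgeR threshold, and 6 of the 7 tested had a fold change below 0 with TMM factors but 1 with library totals.

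The activators open the core without the regulatory particle. Psme1 and Psme2 form the PA28 ring of the cytoplasm, which interferon induces, Psme3 forms its nuclear relative, and Psme4 encodes PA200. Psme1 was at 73.7, 86.4 and 96.2 CPM in PP-MP 1, 2 and 3 and at 130, 103 and 132 CPM in control 1, 2 and 3. Every PP-MP library was below every control, with averages of 85.4 ± 11.3 CPM in PP-MP and 122 ± 16.4 CPM in control (SD, n = 3 each). The log2 fold change of −0.51 was the lowest among the proteasome genes (SE 0.17, interval −0.91 to −0.11, unadjusted p = 0.020 and adjusted p = 0.30 by edgeR, DESeq2 adjusted p = 0.13). It was −0.28 with library totals and −0.60 to −0.41 with 1 library left out. Psme1 shares 0.634% of its exonic length with Emc9 on the opposite strand.

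Psme3 was at 37.9, 47.9 and 45.3 CPM in PP-MP and at 61.2, 49.1 and 59.1 CPM in control, without overlap. Averages were 43.7 ± 5.19 CPM in PP-MP and 56.5 ± 6.45 CPM in control (SD, n = 3 each), a log2 fold change of −0.37 (SE 0.15, interval −0.74 to −0.01, edgeR adjusted p = 0.36, DESeq2 adjusted p = 0.28), and −0.14 with library totals. Psmf1, the inhibitor PI31, was at 23.9, 26.9 and 25.8 CPM in PP-MP and at 36.9, 25.2 and 35.7 CPM in control. Control 2 lay among the PP-MP libraries and the other controls above them (log2 fold change −0.35, SE 0.18, edgeR adjusted p = 0.43). Psme2 was at 51.1, 56.3 and 64.1 CPM in PP-MP and at 68.3, 61.9 and 67.5 CPM in control, with overlap (log2 fold change −0.21, SE 0.14, edgeR adjusted p = 0.52). Psme4 was at 85.0, 88.8 and 93.0 CPM in PP-MP and at 60.7, 96.4 and 76.8 CPM in control, where control 2 was the highest of the 6 libraries (log2 fold change 0.19, SE 0.19, edgeR adjusted p = 0.67). Psme2 and Psme4 are proteasome genes by the name pattern but were not among the 3 of smallest p in their role group, and are given for comparison with Psme1 and Psme3. Control 2 was the lowest control for Psme1, Psme2, Psme3 and Psmf1, and it held the highest share of 18S ribosomal RNA; the part of that share in these values was not tested.

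Counts on a pair of genes in the same library can be compared without any scaling between libraries. The 5 pairs were chosen after their values were seen, and their permutation p-values do not account for that choice. Psme1 had 1.44, 1.54 and 1.50 counts per count on Psme2 in PP-MP 1, 2 and 3 and 1.90, 1.66 and 1.96 in control 1, 2 and 3. The diets did not overlap (1.49 ± 0.0468 in PP-MP and 1.84 ± 0.159 in control, SD, n = 3 each). The two-sided exact permutation p was 0.1, the smallest that 3 against 3 libraries allow, and 0.5 after Benjamini-Hochberg adjustment over 5 pairs. The difference of the means, PP-MP minus control, lay between −0.44 and −0.29 with each library left out in turn. Psme3 had 0.514, 0.554 and 0.471 counts per count on Psme1 in PP-MP and 0.472, 0.478 and 0.447 in control (exact permutation p = 0.3, two-sided).

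Immunoproteasome subunits take the place of the constitutive catalytic subunits after interferon. Psmb8 had 0.470, 0.316 and 0.213 counts per count on Psmb5 in PP-MP 1, 2 and 3 and 0.301, 0.401 and 0.241 in control 1, 2 and 3 (exact permutation p = 0.9, two-sided). Psmb10 had 0.343, 0.228 and 0.165 counts per count on Psmb7 in PP-MP and 0.241, 0.180 and 0.220 in control (exact permutation p = 0.8, two-sided). Psmb9 had 0.156, 0.141 and 0.0689 counts per count on Psmb6 in PP-MP and 0.135, 0.113 and 0.132 in control (exact permutation p = 1, two-sided). All 3 ratios were highest in PP-MP 1 and lowest in PP-MP 3 of the PP-MP libraries, and the diets overlapped in each. PP-MP 1 also had the highest summed macrophage markers, and their part in these ratios was not tested.

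**Figure D3:**
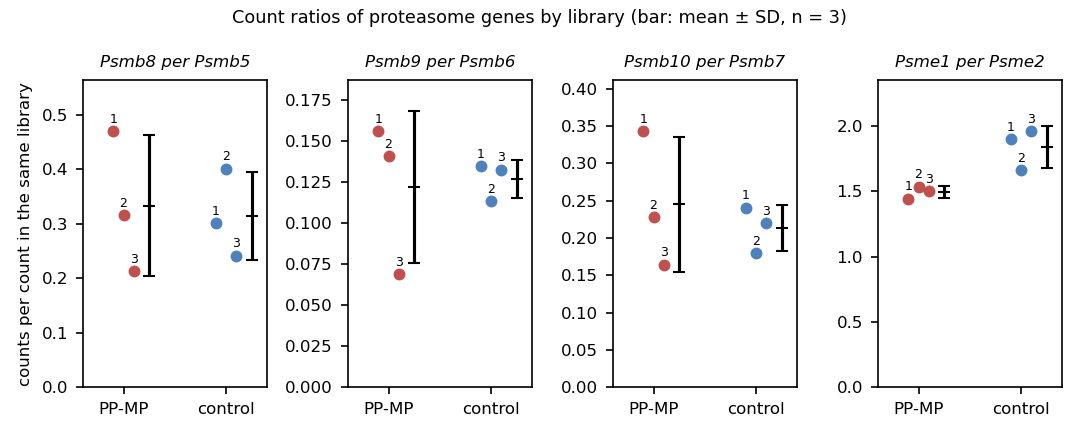
Counts per count on a partner gene in the same library for 4 pairs, PP-MP left of control, with the library number at each point and the mean ± SD (n = 3) as a bar. The Psme1 to Psme2 ratio was 1.44 to 1.54 in PP-MP and 1.66 to 1.96 in control, and the other 3 ratios overlapped between the diets.

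Proteasome genes moved together from library to library, and the p97, COP9 and CCT genes given further below moved in part alike. The summed level of the proteasome genes was 2511, 3081 and 3539 CPM in PP-MP 1, 2 and 3. It was 3390, 3034 and 3659 CPM in control 1, 2 and 3. The averages, 3044 ± 515 CPM in PP-MP and 3361 ± 313 CPM in control (SD, n = 3 each), differed by less than the spread in PP-MP. As a share of all counts, which needs no TMM factor, the 46 rows took 0.276%, 0.346% and 0.365% in PP-MP 1, 2 and 3 and 0.324%, 0.268% and 0.340% in control 1, 2 and 3. PP-MP 1 was the lowest PP-MP library for 42 of the 44 genes (95.5%, against 40.5% of all genes tested), and PP-MP 3 the highest for 39 (88.6%, against 36.6%). Control 2 was the lowest control for 33 (75%, against 35.9%), and control 3 the highest for 34 (77.3%, against 26.9%).

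The median log2 level of the 44 genes relative to the control mean was −0.41, −0.12 and 0.10 in PP-MP 1, 2 and 3, and 0.05, −0.17 and 0.13 in control 1, 2 and 3. With TMM scaling PP-MP 1 thus stood below the controls and PP-MP 3 among them. By share of all counts this did not hold. There PP-MP 1 (0.276%) was above control 2 (0.268%), and PP-MP 3 (0.365%) was above every control. In the same order of libraries, the macrophage markers were at a median of 1.86, 1.09 and 0.01 in PP-MP and 0.04, −0.26 and 0.22 in control, and the hepatocyte markers at −0.13, 0.05 and 0.02 in PP-MP and 0.08, −0.14 and 0.11 in control. All 9 macrophage markers had a fold change above 0. None passed the edgeR threshold and 3 passed that of DESeq2, namely Marco (adjusted p = 3.0e-12), Timd4 (0.0041) and Adgre1 (0.019). Their part in the low values of PP-MP 1 was not tested. Of the markers of other cell types, Apoa1 of hepatocytes (log2 fold change 1.77, DESeq2 adjusted p = 0.039) and S100a8 of neutrophils (3.30, DESeq2 adjusted p = 0.0042) also passed the DESeq2 threshold. Neither passed that of edgeR (adjusted p = 0.30 and 0.25). Every PP-MP library was below every control for 6 of the 44 genes (13.6%, against 9.79% of all genes tested), namely Psmd1, Psmd11, Psmd5, Psmg2, Psme1 and Psme3. None was above every control, against 12.2% of all genes tested. With library totals as the only scaling, 0 genes were below (against 2.59% of all genes tested) and 5 above (11.4%, against 24.5%).

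**Figure D4:**
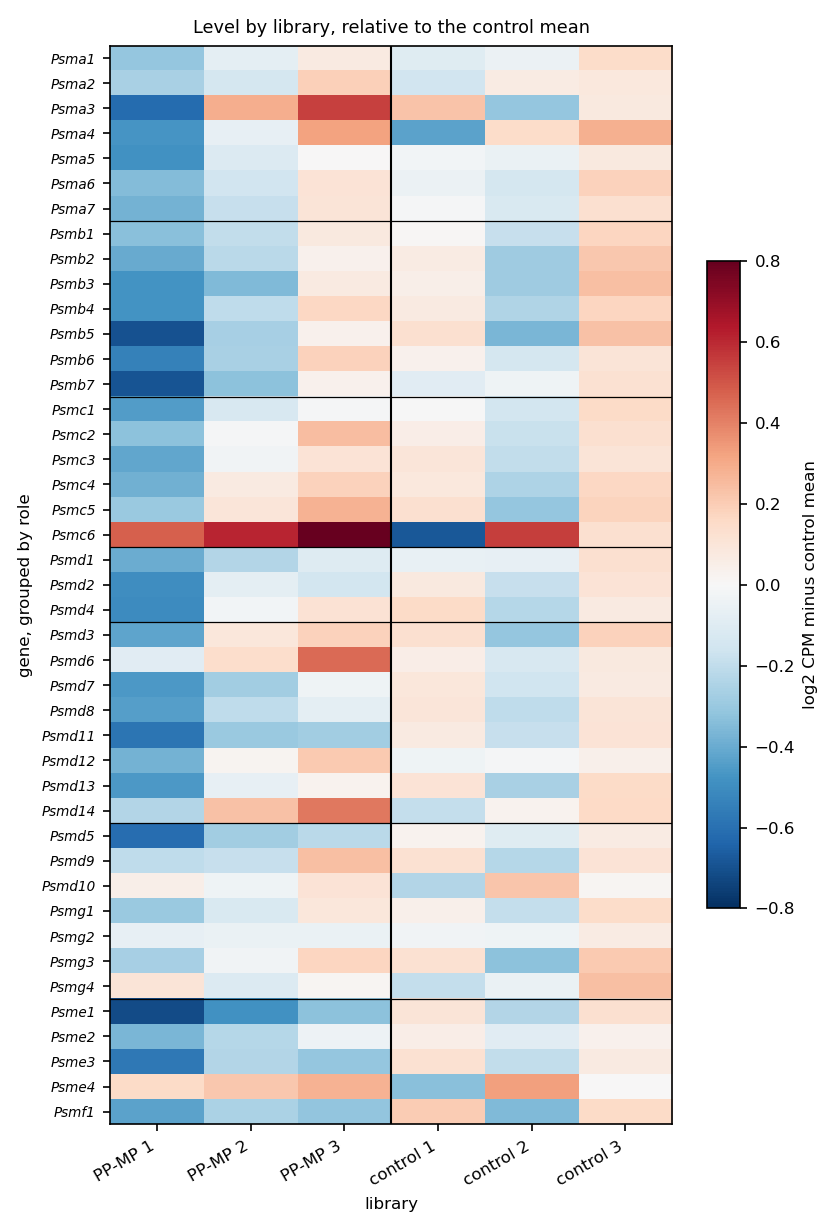
Log2 CPM of each tested proteasome gene minus its control mean, in the 3 PP-MP libraries (left of the line) and the 3 control libraries (right), grouped by role; Psma8 is not drawn. The PP-MP 1 column is blue for most genes, PP-MP 3 and control 3 are mostly red, and Psmc6 is red in all but control 1.

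Levels between genes were compared per length, as CPM per kilobase of the main transcript. Psmb6 was the highest, at 130 CPM per kilobase in PP-MP and 147 in control. Psmb3 followed at 115 in PP-MP and 136 in control, and Psma7 at 111 in PP-MP and 122 in control. Apart from Psma8 and Psmb11, the lowest core gene was Psma2, at 22.7 CPM per kilobase in PP-MP and 23.7 in control. The tested assembly factors lay below every core and 19S subunit other than Psma8 and Psmb11, at 5.73 to 15.8 CPM per kilobase in PP-MP and 5.74 to 16.3 in control. Psme1 reached 76.8 CPM per kilobase in PP-MP and 109 in control, in the range of the core, whereas Psme3 was at 16.4 in PP-MP and 21.2 in control and Psmf1 at 6.71 in PP-MP and 8.56 in control. Psma8 was at 0.372 CPM per kilobase in PP-MP and 0.305 in control. These levels depend on the transcript chosen for the length.

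**Figure D5:**
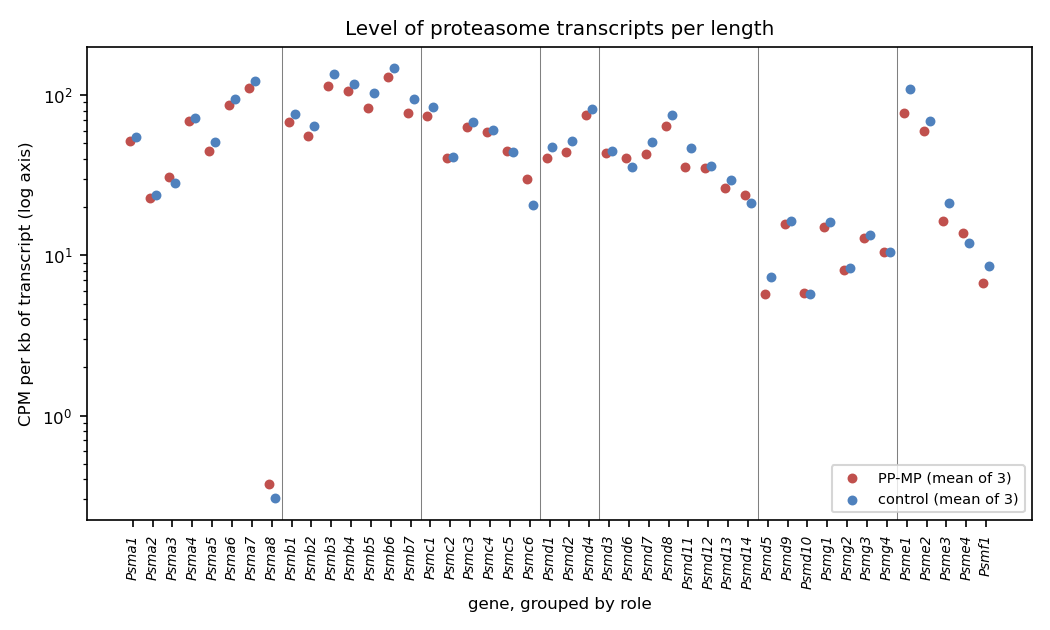
Mean level of each proteasome gene as CPM per kilobase of the main transcript on a log axis, PP-MP left of control, grouped by role. Core and 19S subunits other than Psma8 and the undetected Psmb11 lie between 22.7 and 130 in PP-MP and between 20.5 and 147 in control, and the tested rows of assembly factors between 5.73 and 15.8 in PP-MP and between 5.74 and 16.3 in control.

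Other genes of the pathway were read from lists of 9 groups, and none of their members passed the edgeR or the DESeq2 threshold. At an unadjusted p under 0.05 by edgeR, Mafg was higher in PP-MP (1 of 9 genes tested in its list). Lower were Akirin2 and Ecpas (2 of 8), Ube3c (1 of 6) and Ubqln4 (1 of 11), and no gene of the other lists passed. Of all genes tested, 8.05% were higher and 5.81% lower at that p. The 3 immunoproteasome subunits had a median log2 fold change of −0.26 with TMM factors and −0.02 with library totals. Their order over the PP-MP libraries was the reverse of that of the constitutive beta ring. Relative to the control mean, their median log2 level was −0.08, −0.23 and −0.50 in PP-MP 1, 2 and 3. That of the beta ring was −0.48, −0.26 and 0.07. Psmb8 was at 26.3, 23.8 and 19.7 CPM in PP-MP and at 29.9, 28.2 and 25.7 CPM in control (log2 fold change −0.26, edgeR adjusted p = 0.48), with PP-MP 1 inside the control range. Psmb9 was at 12.5, 13.7 and 9.15 CPM in PP-MP and at 16.1, 12.0 and 16.6 CPM in control (log2 fold change −0.34, edgeR adjusted p = 0.51). Psmb10 was at 23.3, 19.9 and 18.5 CPM in PP-MP and at 24.9, 19.3 and 26.3 CPM in control (log2 fold change −0.19, edgeR adjusted p = 0.64). The diets overlapped in all 3.

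Of the 8 proteasome genes with other names, all had a fold change below 0 with TMM factors and 3 with library totals. Pomp, the maturation factor of the core, was at 65.2, 80.1 and 86.8 CPM in PP-MP and at 85.6, 72.1 and 96.6 CPM in control (log2 fold change −0.13, edgeR adjusted p = 0.75). Akirin2, known from human cells to help import proteasomes into the nucleus, was at 1.94, 1.34 and 1.73 CPM in PP-MP and at 6.97, 6.87 and 1.08 CPM in control. Control 3 lay below the PP-MP libraries and the other controls above them (log2 fold change −1.57, SE 0.65, edgeR adjusted p = 0.36). Ecpas, an adaptor that binds the regulatory particle, was at 5.04, 17.3 and 7.40 CPM in PP-MP and at 24.4, 17.4 and 22.0 CPM in control (log2 fold change −1.10, SE 0.45, edgeR adjusted p = 0.36, and −1.77 without PP-MP 2). PP-MP 2 and control 2 nearly met, and no library overlapped.

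Over the 9 genes of the NRF1 group, the median was −0.01 with TMM factors and 0.23 with library totals. Nfe2l1 was at 93.3, 135 and 121 CPM in PP-MP and at 146, 138 and 125 CPM in control, with PP-MP 1 lowest (log2 fold change −0.22, edgeR adjusted p = 0.59). Mafg, a small Maf protein that pairs with NRF1, was at 21.4, 17.4 and 14.8 CPM in PP-MP and at 13.7, 11.2 and 10.9 CPM in control. Every PP-MP library was above every control (log2 fold change 0.58, SE 0.19, edgeR adjusted p = 0.29). Keap1, the adaptor that keeps NRF2 low, was at 44.0, 50.6 and 50.5 CPM in PP-MP and at 60.2, 51.2 and 62.9 CPM in control, without overlap (log2 fold change −0.26, edgeR adjusted p = 0.44).

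Among genes that supply or hand over ubiquitin-tagged substrates, Rps27a, which encodes ubiquitin fused to a ribosomal protein, was at 179, 145 and 202 CPM in PP-MP and at 120, 149 and 141 CPM in control (log2 fold change 0.36, edgeR adjusted p = 0.42), with overlap. Ubqln4, a shuttle factor, was at 22.9, 26.7 and 27.3 CPM in PP-MP and at 41.0, 31.9 and 36.6 CPM in control, without overlap (log2 fold change −0.51, SE 0.15, edgeR adjusted p = 0.25, DESeq2 adjusted p = 0.078). It had the smallest edgeR p of all pathway genes. Ube3c, a ligase bound to the proteasome, was at 26.8, 33.2 and 31.7 CPM in PP-MP and at 38.8, 35.0 and 43.0 CPM in control, without overlap (log2 fold change −0.35, SE 0.15, edgeR adjusted p = 0.36).

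Among other genes chosen by the rule, log2 fold changes were −0.24 for the ubiquitin-activating enzyme Uba1 and 0.30 for its relative Uba7. They were −0.30 for the p97 cofactor Nploc4 and −0.22 for the ligase Hectd3. The edgeR adjusted p of these genes ran from 0.43 to 0.64. The p97 and shuttle genes had a median log2 fold change of −0.20 with TMM factors and 0.030 with library totals. All 11 genes tested lay below the median of all genes with TMM factors, and 9 did so without PP-MP 1. Complexes of a like build served for comparison. The COP9 signalosome, a relative of the lid, had 10 genes with a median fold change on the log2 scale of −0.11 with TMM factors and 0.12 with library totals, and Cops7b at 0.35 and Cops9 at −0.36 (edgeR adjusted p = 0.45 and 0.42). The CCT chaperonin had a median of 0.06 over 8 genes with TMM factors and 0.29 with library totals, with Tcp1 at 0.13 and Cct8 at −0.12 (edgeR adjusted p = 0.73 and 0.71). Relative to the control mean, the median log2 level of the p97 and shuttle genes was −0.42, −0.07 and −0.09 in PP-MP 1, 2 and 3. In control 1, 2 and 3 it was 0.06, −0.16 and 0.07. In the same order it was −0.29, −0.03 and 0.02, then −0.02, −0.12 and 0.11 for the COP9 signalosome. For the CCT chaperonin it was −0.15, 0.01 and 0.26, then −0.01, −0.04 and 0.07. PP-MP 1 was lowest in each, as for the proteasome genes. Whether these groups differ from the proteasome genes was not tested.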

How the data were processed

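Liver RNA of 6 samples was sequenced. Per the labels' protocols, the libraries were directional and made from poly(A) RNA. The authors deposited raw counts per gene (56674 rows by symbol), and the per-sample files of counts were identical to the columns of that table. Per the submitters' processing notes, bcl2fastq and GRCm39 were used, without versions. The sources used here do not give the aligner, the counter, the strand setting or the annotation, so reads of overlapping genes cannot be assigned with certainty. The largest overlaps with another gene model among the members were 25.5% of the exonic length for Psmd9, 12.1% for Psmb5 and 11.8% for Psmb7. The near copy Psme2b held 187, 104 and 97 counts in PP-MP and 73, 93 and 119 counts in control.

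The rows whose symbol fits the name pattern were used, each row on its own. The members, role groups, pathway lists and tests were chosen with earlier results of these data known, and the 5 gene pairs for count ratios after their values were seen. Counts were filtered with filterByExpr and scaled with TMM factors (1.10, 1.12 and 1.03 in PP-MP 1, 2 and 3, and 0.957, 0.882 and 0.929 in control 1, 2 and 3). The unpaired, two-sided comparison used edgeR 4.0.16 under R 4.3.3 (robust quasi-likelihood F test), with p-values adjusted by the Benjamini-Hochberg method over all 18284 genes and called at 0.05. CPM values use the same factors, and log2 CPM a prior count of 2. Named members are the 3 of smallest unadjusted p per role group plus Psmb5, Psmb6, Psmb7, Psmd4, Psmd14 and rows left out by the filter, and pathway genes the 2 of smallest p per list plus Psmb8, Psmb9, Psmb10, Nfe2l1 and Pomp. A floor of 3 counts was used for rows at 0 and covers counting error only. Of 64 pathway symbols 63 matched. A pathway gene that the naming rule takes is not reported here.

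Length and GC content came from the main transcript in GENCODE M21 (GRCm38), found for 94.9% of tested genes, and promoter windows from RefSeq (GRCm38.p6); no deposited value has coordinates. Libraries of the same diet differed by more than counting error, so none was a duplicate. Alternatives were DESeq2 size factors, library totals, no filter, a mean CPM of at least 1, DESeq2 1.42.0, limma-voom (limma 3.58.1), a replicate block, the data without mitochondrial, haemoglobin and ribosomal RNA genes, each library left out, and control 2 and PP-MP 1 left out together. Removal of a GC trend (lowess span 0.3) was chosen after seeing the data. The test procedure was tested on simulated data. Tables were made in Python 3.11.15 with pandas 2.3.3 and NumPy 2.4.6, permutation tests with SciPy 1.17.1, and plots with matplotlib 3.10.9.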

Additional observations from a re-analysis of the deposited data

How the results depend on the processing

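No proteasome gene was called under any of the 17 settings, the reported one included; the smallest adjusted p was 0.12 (edgeR, Psmf1 without control 2). The median log2 fold change of the proteasome genes was 0.10 with library totals and −0.27 to −0.02 with 1 library left out. Over all genes, edgeR called 2, against 1 with library totals, 777 by DESeq2, 1 by limma-voom and 0 to 92 with 1 library left out, the highest without control 2. Proteasome genes without overlap numbered 6 (13.6%, against 22% of all genes tested) and 5 to 16 with 1 library left out. They were 16 without control 2 (36.4%, against 44.1%), 10 without PP-MP 1 (22.7%, against 29.3%), 15 without PP-MP 3 (34.1%, against 34.4%) and 20 without control 2 and PP-MP 1 together (45.5%, against 53.4%). The number was 5 without control 1 (11.4%, against 29.9%), 5 without control 3 (11.4%, against 27.9%) and 6 without PP-MP 2 (13.6%, against 30.5%). The cause was not tested.

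At an unadjusted p under 0.05 the edgeR fit gave 4 proteasome genes, all lower (9.09%, against 13.9% of all genes tested). It gave 3 with library totals, all higher, and 7 without control 2 (5 lower and 2 higher). Without PP-MP 3 it gave 3, and 0 when any of the other libraries was left out. The share of all genes at that p is not given for settings other than the reported one. With library totals the fold change turned positive for Psma5 (0.046), Psma6 (0.10), Psma7 (0.082), Psmb6 (0.046), Psmc1 (0.040), Psmc3 (0.12), Psmd4 (0.10), Psmg1 (0.12), Psmg2 (0.17), Psmb10 (0.039), Pomp (0.094), Nfe2l1 (0.0097), Hectd3 (0.0082) and Cct8 (0.11). It did so without PP-MP 1 for Psmc3 and Psmd4, whose values with 1 library left out ran from −0.22 to 0.034 and from −0.25 to 0.038. With the GC trend removed Psmd14 was at −0.022; the cause was not tested. The other 687 values of single genes kept their direction and their side of the threshold. With 1 library left out, the difference of the ratio means, PP-MP minus control, changed sign for Psmb8 to Psmb5 (0.019, against −0.050 to 0.078), Psmb10 to Psmb7 (0.032, against −0.017 to 0.072) and Psmb9 to Psmb6 (−0.0050, against −0.022 to 0.021).

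Replicate numbers are shared across diets in the labels, but nothing says that they pair samples, and deviations of same-numbered samples correlated at −0.0662, −0.0872 and 0.0470. With the replicate number as a block, edgeR called 0 genes in all, 0 proteasome genes, and 1 proteasome gene at an unadjusted p under 0.05. Depth limits what can be said of Psma8, Psmb11 and the second row of Psmd5.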
